A study of Mus musculus with 51 samples.

Results

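The comparison set the ventral prostate of AKT1 transgenic mice against that of wild type mice after 15 d of placebo. Arrays were chosen by title and treatment label alone. They are 7 transgenic arrays (replicates 1, 2, 4, 6, 8, 9 and 10) and 3 wild type arrays (replicates 1, 2 and 3), which is 10 of the 42 arrays in the larger value table and of 51 in all. Both groups are FVB mice with a labelled age of 8 to 10 weeks on a standard diet, and both received placebo, the control arm for RAD001 (everolimus), an inhibitor of mTOR. The genotypes are labelled wild type and FVB-AKT1. The promoter of the transgene, the species of its AKT1 sequence and the number of mice behind an array do not appear among the labels. Total RNA was read on Affymetrix arrays as 1 linear intensity per probe set. Differences below are log2 intensity in transgenic minus wild type arrays with the standard error (SE) of the fit, on values floored at 16, and a gene was called when limma's adjusted p was under 0.05.

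AKT1 is a kinase that is activated downstream of PI3K. Active AKT keeps FOXO transcription factors out of the nucleus and relieves the brake on the mTOR complex, which promotes protein synthesis and the activity of the hypoxia factor HIF1A and of the SREBP factors of sterol synthesis. The ventral prostate is a secretory gland in which luminal epithelial cells rest on basal cells and are wrapped in smooth muscle and fibroblasts.

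The 10 arrays had median intensities from 91.6 to 109.3 and did not read equally well. Of 9627 tested features, the wild type arrays list 14 to 34 at exactly 0, transgenic replicates 1 and 2 list 18 to 22, replicates 4, 6 and 10 list 48 to 168, and replicates 8 and 9 list 385 and 562. Some of these zeros fell on bright transcripts. The keratin gene Krt19 was listed at 0 on replicate 8 against a median of 2811 over the 42 arrays, and Npc2, which carries cholesterol out of lysosomes, was at 0 on replicate 9 against 2645. The first principal component, which held 26.1% of the variance, parted all 15 d arrays into what is called set A here (the 3 wild type arrays, transgenic placebo replicates 1 and 2, RAD001 replicates 1 and 2) and set B (transgenic placebo replicates 4, 6, 8, 9 and 10, RAD001 replicates 3, 4, 6 and 7). Set A arrays list 13 to 34 tested features at 0 and set B arrays 48 to 562. The labels name no such split. Every wild type array is in set A, so for set B arrays the genotype and the set cannot be told apart. Since the sets were read from the expression values, set A holds the transgenic arrays that lie nearest to wild type along this component.

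**Figure D1:**
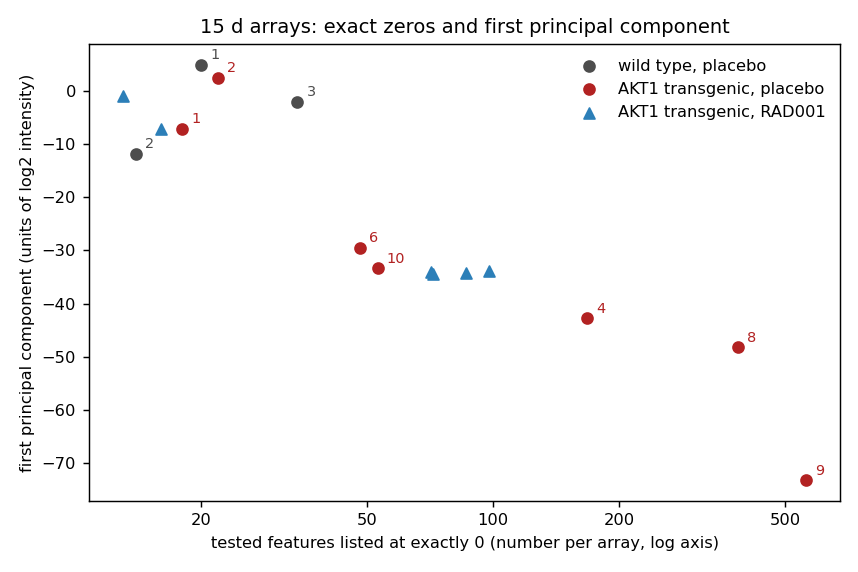
Each point is a 15 d array, with the number of tested features listed at exactly 0 on a log axis and its score on the first principal component. Wild type (grey) and transgenic placebo arrays (red) carry their replicate numbers and RAD001 arrays are triangles; set A arrays list 13 to 34 features at 0 and set B arrays 48 to 562.

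The mouse Akt1 probe set did not separate the groups. Its intensity was 970, 911 and 717 in wild type and from 617 to 908 (median 793) in transgenic arrays, a difference of -0.15 ± 0.14 that was not called. A dimmer Akt1 probe set gave -0.28 ± 0.40. Whether these probes can read the transgene was not tested, so the genotype labels have no check of their own in these values. Pbsn, an androgen-dependent secretory gene of the prostate, was bright in all arrays, at 4316, 4133 and 4752 in wild type and 3980 to 5058 in transgenic arrays.

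Over all 10 arrays 1920 features were called, 19.9% of those tested, with 873 higher (9.07%) and 1047 lower (10.9%) in transgenic glands. At least 2-fold differences were called for 112 higher and 98 lower features. The median difference over all features was -0.09. Every transgenic array lay above every wild type array in 621 of the 9627 features, and below in 630. Genes named below were mostly picked by small p or large difference, which favours such separation. Counts of list members below are to be read against the shares of 9.07% higher and 10.9% lower. The number called turned strongly on which arrays were used. Without transgenic replicates 8 and 9, 13.8% of features were called (1325). With exact zeros taken as missing, 25.7% were called, 11.6% higher and 14.1% lower. In set A alone 291 features (3.02%) were called, 200 higher (2.08%) and 91 lower (0.945%), and with the array set as a block 460 (4.78%) were called. Leaving out wild type replicate 1 left 715 calls and leaving out wild type replicate 3 left 1041. A core of 184 features (1.91%) was called in the same direction in all of these fits other than the last pair, with 128 higher and 56 lower. These settings were chosen with the data in view, and membership of the core is given below as a description.

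The largest rises among genes also called without replicates 8 and 9 were these. Saa2, an acute-phase apolipoprotein, read 27.4, 46.3 and 42.5 in wild type arrays and from 405 to 1138 (median 715) in transgenic arrays. All 7 transgenic arrays lay far above all 3 wild type arrays, and the difference was 4.26 ± 0.80 (adjusted p = 0.00038). Psca, a surface antigen of prostate and bladder epithelium, read 37.1, 46.3 and 51.8 in wild type. On 6 of the 7 transgenic arrays it read 567 to 2640, and on replicate 4 it was listed at 0, so that the groups overlap through that array alone. Its difference was 4.28 ± 1.20 (adjusted p = 0.0115) and 5.24 with zeros taken as missing. Tesc, which encodes the calcium-binding protein tescalcin, read 11.1, 25.0 and 42 against 129 to 240 (2.83 ± 0.36, adjusted p = 4.81e-06). The value of 11.1 lies under the floor, so the size of this difference depends on the floor. It ran from 1.51 to 3.18 over the 23 settings that tested Tesc, while Saa2 ran from 3.50 to 5.14 and Psca from 3.68 to 5.77. A second Tesc probe set, too dim on average to be tested, read 38.3 to 49.3 in wild type and 75.5 to 139 in transgenic arrays. Atf3, a transcription factor induced by stress, read 43.2, 55.9 and 64.6 against 213 to 510 (2.71 ± 0.33, adjusted p = 1.71e-06). Gde1, a glycerophosphodiester phosphodiesterase gene, read 79.8, 149 and 155 against 508 to 827 (2.39 ± 0.30). In each of these last 3 genes the groups did not overlap, and all 5 genes belong to the core.

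Next in size were Ero1a (2.00 ± 0.31), which encodes an oxidase that forms disulphide bonds in the endoplasmic reticulum, and Naip6 (1.87 ± 0.36), a member of the inflammasome sensor family whose near-identical copies may share its probes. Other Ero1a probe sets rose less, by 1.10 ± 0.22 and 1.10 ± 0.31, and were called. Gusb, the lysosomal beta-glucuronidase, read 133, 170 and 139 in wild type and 427 to 679 in transgenic arrays (1.81 ± 0.28), and a second Gusb probe set gave 0.75 ± 0.23. Niban1, a stress-responsive regulator of translation, rose by 1.67 ± 0.52 although replicate 9 was listed at 0. Slc40a1, the iron exporter ferroportin, rose by 1.71 ± 0.47, but transgenic replicates 1 and 2 read 164 and 115 against 263 to 382 on the other arrays, and in set A its difference was 0.77 and not called. A second Slc40a1 probe set gave 0.76 ± 0.44 and was not called. For 2 further genes the size came from zeros in wild type. Mknk1, a kinase gene of the translation machinery, was listed at 0 on wild type replicates 1 and 3 and at 99.7 on replicate 2 (2.23 ± 0.38, but 0.47 and not called with zeros missing). Cpox, of heme synthesis, was listed at 0 on wild type replicate 3 and at 350 and 338 on the others (1.91 ± 0.45, but 0.44 and not called with zeros missing).

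**Figure D2:**
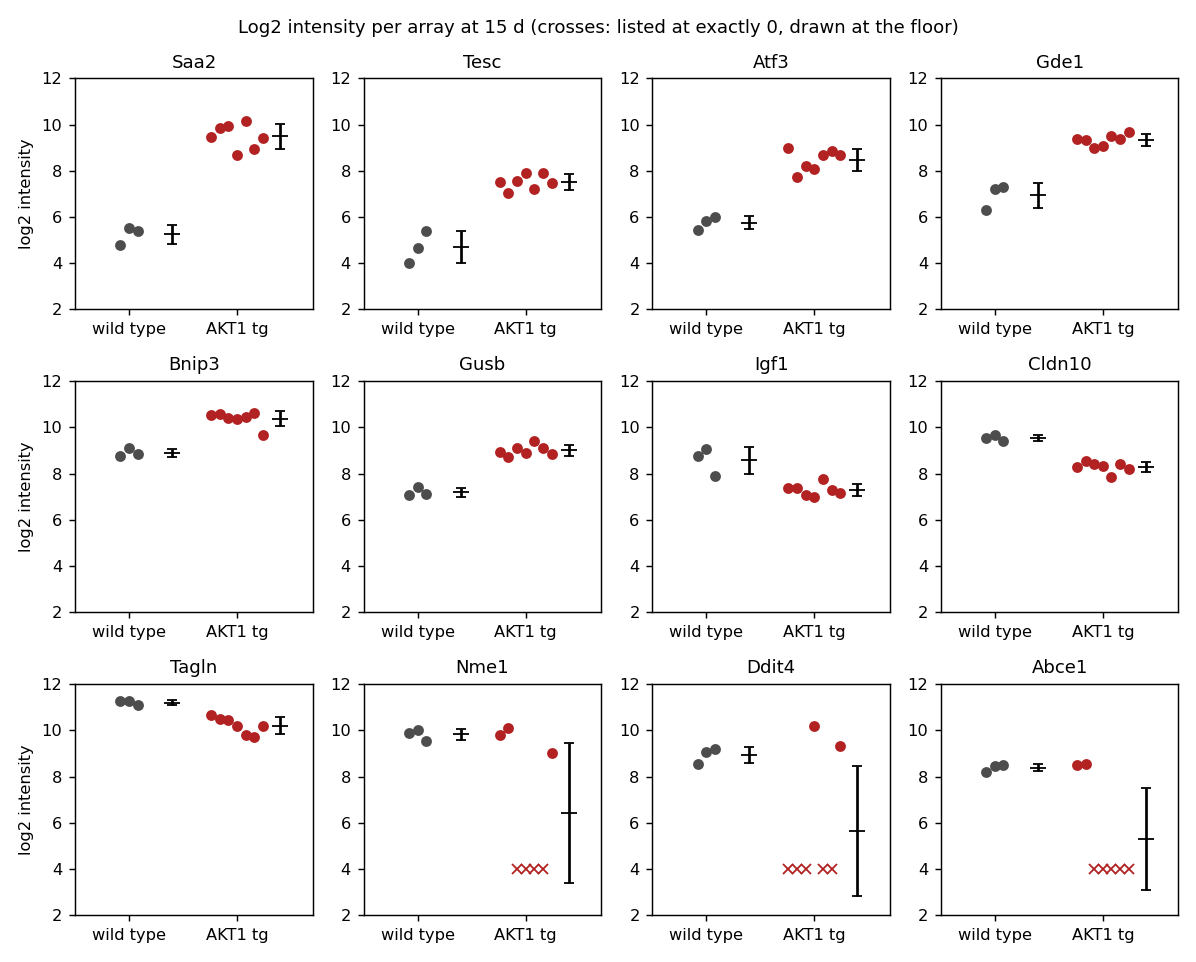
Log2 intensity of 12 genes on each of the 3 wild type and 7 transgenic arrays, with the mean and SD beside each group; crosses are values listed at exactly 0, drawn at the floor. Saa2, Tesc, Atf3, Gde1, Bnip3 and Gusb lie apart in the 2 groups with transgenic arrays higher, Igf1, Cldn10 and Tagln with transgenic arrays lower. In the probe sets drawn, the falls of Nme1, Ddit4 and Abce1 rest on zeros.

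Of the 12 largest falls among genes also called lower without replicates 8 and 9, 11 had transgenic arrays listed at exactly 0. Nme1, a nucleoside diphosphate kinase gene, read 953, 1041 and 755 in wild type, 887, 1086 and 513 on transgenic replicates 1, 2 and 10, and 0 on the other 4. Its difference was -3.42 ± 0.88 over all arrays and -0.20 (not called) with zeros missing. Abce1, a ribosome recycling factor, Blvra, a biliverdin reductase, and Gins4, of the replication helicase, were each listed at 0 on all 5 set B arrays and read as in wild type on replicates 1 and 2. Cdkn2c, a cyclin-dependent kinase inhibitor gene, Padi2, a peptidylarginine deiminase gene, and the histone gene H2aw were at 0 on 4 transgenic arrays and within the wild type range or near it on the rest. Of these, none was called with zeros missing. A second Nme1 probe set gave 0.06 ± 0.17 and was not called. A second Abce1 probe set read 34.5 to 73.6 on the set B arrays with no zero there, and 223 and 226 on replicates 1 and 2. In wild type it read 198, 276 and 0 (-0.26 ± 0.76, not called), so a lower Abce1 reading on set B does not rest on zeros alone. Ddit4, an mTOR inhibitor that hypoxia and stress induce, turned direction. It was listed at 0 on 5 of 7 transgenic arrays and at 1152 and 643 on replicates 6 and 10, above the wild type values of 372, 542 and 582, so that -3.29 ± 0.81 became 0.81 (adjusted p = 0.00398) with zeros missing. AY036118 (-1.49), Zfand3 (-1.23) and the calcium-dependent membrane-binding gene Cpne2 (-0.54) were still called lower with zeros missing. Other probe sets of Zfand3 disagreed, at -0.74 (called), 0.03 and 0.15 (not called). Among all tested features 26 were at 0 on at least 4 of the 10 arrays, and 20 of them were called, all lower.

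Of the falls described next, which involve no zero, Th, Igf1 and Fbxo32 were named by the rule given below for naming genes. The others were chosen after their values were seen. Th encodes tyrosine hydroxylase, the rate-limiting enzyme of catecholamine synthesis. It read 279, 199 and 224 in wild type and from 16.8 to 143 (median 73.2) in transgenic arrays, without overlap (-1.98 ± 0.66, adjusted p = 0.0314). Igf1, the growth factor that signals into the PI3K pathway, read 431, 529 and 241 against 126 to 216 (-1.28 ± 0.23, adjusted p = 0.000217), although its other probe sets gave 0.17 and -0.38 and were not called. Cldn10, a tight junction claudin, read 751, 814 and 690 against 229 to 377 (-1.26 ± 0.21). Nfix, a nuclear factor I transcription factor, read 1222, 1221 and 1334 against 391 to 833 (-1.27 ± 0.19). These genes are all in the core. Aqp5, a water channel of secretory epithelium (-1.69 ± 0.54), Hoxa11os, an antisense RNA at the Hoxa11 locus (-1.52 ± 0.30), the potassium channel gene Kcnk3 (-1.51 ± 0.39) and Fbxo32, a ubiquitin ligase gene (-1.40 ± 0.31), fell without overlap but were not called in set A, where their differences were -1.53, -0.81, -1.15 and -0.88. Actn4, an actin crosslinker, shows the other pattern. It read 1778, 1606 and 1669 in wild type, 1634 and 1673 on transgenic replicates 1 and 2, and 347 to 677 on the set B arrays, so that it fell by 1.29 over all arrays and differed by -0.03 in set A. Mark2, a polarity kinase gene, behaved in the same way (-1.30 over all arrays, -0.06 in set A).

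Glycolytic genes were higher in transgenic glands. Of 12 tested members of a list of glycolytic enzymes and transporters, 6 were called higher and 0 lower, against 9.07% and 10.9% of all features, and the median difference was 0.39 against -0.09 over all features. Tpi1, triosephosphate isomerase, read 766, 920 and 781 in wild type and 1369 to 2112 in transgenic arrays (1.12 ± 0.16, adjusted p = 1.68e-05). Aldoa, aldolase A, read 1785, 1691 and 1602 against 2408 to 4128 (0.89 ± 0.15). Pgk1, phosphoglycerate kinase, read 1716, 1861 and 1523 against 2625 to 4161 (0.94 ± 0.16), and Pfkl, phosphofructokinase of the liver type, read 422, 541 and 434 against 548 to 1342 (0.96 ± 0.19). In the probe sets kept for all 4 genes every transgenic array lay above every wild type array, and all 4 belong to the core. A second Pfkl probe set overlapped and was not called (-0.21 ± 0.58). It read 388 to 466 in wild type, 0 on replicate 4, 366 on replicate 9 and higher than wild type on the other transgenic arrays.

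Aldoc and Hk1 were the other 2 called, Hk1 not without replicates 8 and 9 (adjusted p = 0.075), while Hk2 (0.35) and Pfkm (0.15) had no zeros and were not called. In 3 members that were not called, the arrays without a zero read higher than wild type. Pkm, pyruvate kinase, read 1678, 1593 and 1684 in wild type and 2308 to 3966 on 4 transgenic arrays, but 0 on replicates 4, 8 and 9, which gave -2.30 ± 1.18 over all arrays and 0.99 (adjusted p = 0.000406) with zeros missing. Ldha, lactate dehydrogenase A, was at 0 on replicate 8 and otherwise at 2867 to 4243 against 1800, 1861 and 2354 (-0.17 ± 1.22, and 0.96 with zeros missing). Pgam1, phosphoglycerate mutase, was at 0 on replicate 9 and otherwise at 1192 to 2123 against 714 to 811 (0.14 ± 0.73, and 1.09 with zeros missing). With zeros missing 9 of 12 members were called higher with a median of 0.92, and in set A 7 were called higher with a median of 0.995. The glucose transporter gene Slc2a1 was not called by its brightest probe set, which was at 0 on replicate 9 (-0.35 ± 0.48), while a dimmer one with no zero read 42.9, 93.2 and 72.3 against 143 to 344 (1.64 ± 0.24, adjusted p = 2.24e-05 with all probe sets tested apart).

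Hypoxia-responsive genes outside glycolysis rose with them. Of 17 tested members 7 were called higher and 1, Ddit4, lower, with a median of 0.46. Bnip3, a mitophagy receptor, read 435, 550 and 466 in wild type and 808 to 1588 (median 1396) in transgenic arrays (1.47 ± 0.19, adjusted p = 4.81e-06). Fam162a, a mitochondrial protein of hypoxic cells, read 727, 892 and 693 against 1332 to 2139 (1.18 ± 0.17). Pdk1, the kinase that keeps pyruvate out of the citric acid cycle, read 63.1, 76.3 and 66.9 against 144 to 327 (1.65 ± 0.24), and Ero1a read 150, 201 and 139 against 490 to 859. The groups did not overlap in any of these 4 genes, and all are in the core. Higd1a, a mitochondrial hypoxia-induced gene, was at 0 on replicate 9 and otherwise at 541 to 808 against 267, 343 and 297 (1.23 with zeros missing). The angiogenic factor gene Vegfa, a textbook hypoxia target, read 166, 149 and 202 against 119 to 211 and was not called (-0.17 ± 0.14).

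The 250 bases before the start of Bnip3, Fam162a and Ero1a are shown because these genes rose together without overlap, and those of Tpi1 because it rose as clearly without the motif in this window. The sequences are from RefSeq on GRCm38.p6, 5′ to 3′ on the strand of the gene, with ACGTG and GCGTG on either strand, the core letters read by HIF1A, in capitals. They lie on the minus strand at chr7:138909507-138909756 (Bnip3), chr16:36071562-36071811 (Fam162a), chr14:45318573-45318822 (Ero1a) and chr6:124814159-124814408 (Tpi1).
Bnip3: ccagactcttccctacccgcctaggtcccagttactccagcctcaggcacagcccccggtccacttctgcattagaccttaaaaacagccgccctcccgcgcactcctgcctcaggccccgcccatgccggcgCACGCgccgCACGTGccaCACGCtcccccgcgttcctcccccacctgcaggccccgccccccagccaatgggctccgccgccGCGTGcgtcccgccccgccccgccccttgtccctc
Fam162a: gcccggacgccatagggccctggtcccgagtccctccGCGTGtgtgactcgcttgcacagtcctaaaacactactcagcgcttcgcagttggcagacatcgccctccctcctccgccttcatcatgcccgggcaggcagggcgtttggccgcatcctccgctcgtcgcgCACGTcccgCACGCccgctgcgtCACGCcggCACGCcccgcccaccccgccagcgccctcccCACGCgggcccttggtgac
Ero1a: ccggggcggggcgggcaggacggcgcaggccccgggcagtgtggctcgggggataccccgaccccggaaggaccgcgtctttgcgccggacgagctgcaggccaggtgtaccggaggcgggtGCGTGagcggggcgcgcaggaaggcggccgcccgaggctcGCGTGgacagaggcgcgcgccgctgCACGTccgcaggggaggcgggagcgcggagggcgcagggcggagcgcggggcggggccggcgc
Tpi1: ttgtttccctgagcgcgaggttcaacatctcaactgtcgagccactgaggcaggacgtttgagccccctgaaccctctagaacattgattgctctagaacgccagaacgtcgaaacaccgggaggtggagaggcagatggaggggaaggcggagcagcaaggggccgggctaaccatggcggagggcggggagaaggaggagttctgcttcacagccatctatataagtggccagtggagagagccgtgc
Bnip3 holds 5 matches, 2 of which overlap within CACGTG, Fam162a holds 6 and Ero1a 3. Of 21 promoters of tested hypoxia list members 76.2% hold ACGTG or GCGTG, as do 76.2% of 21 promoters of the glycolysis list, 70.8% of 24 of the lysosome list, 41.7% of 12 of the smooth muscle list and 38.6% of 32851 promoters in the table. Promoters of 1 gene can overlap. The share over all promoters also covers genes that were not tested here. No share was taken over tested genes alone, so the lists have no matched background. A match describes these letters and is not evidence of binding.

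**Figure D3:**
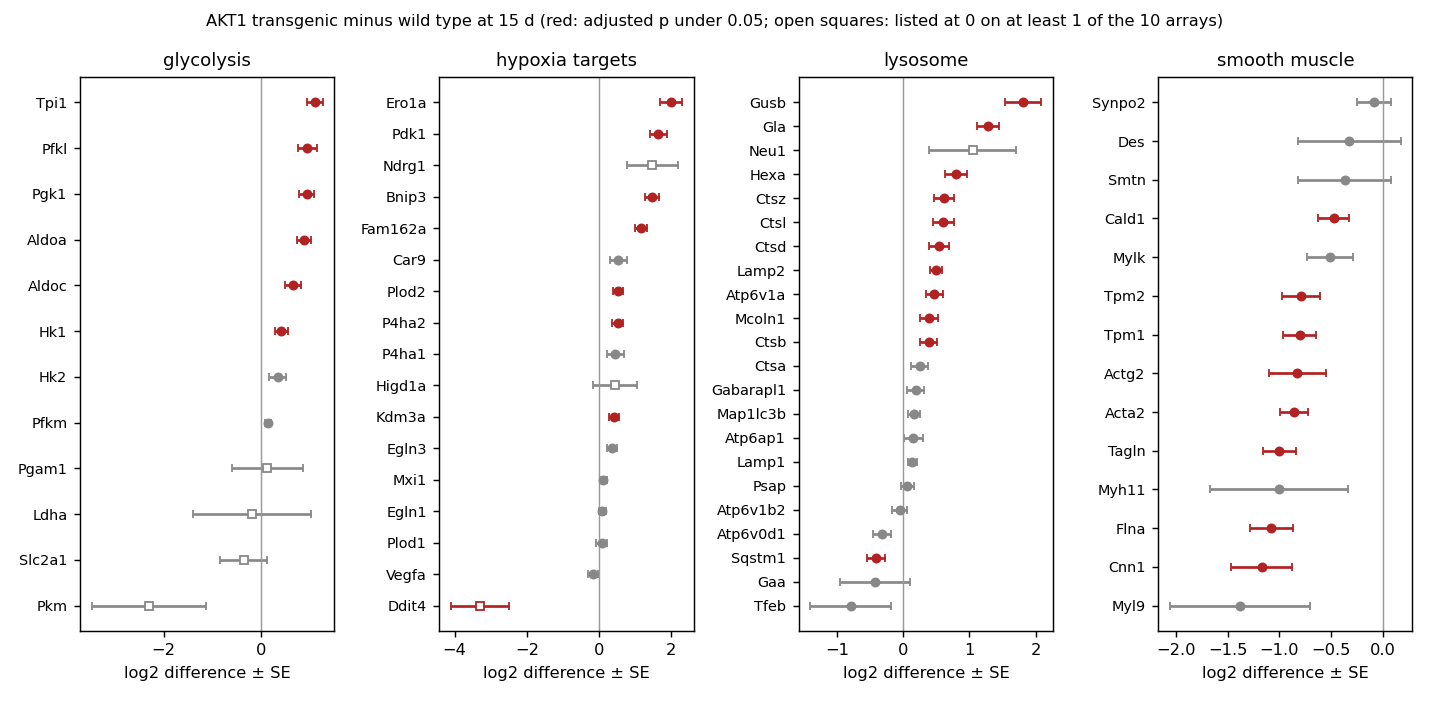
Log2 difference (transgenic minus wild type at 15 d) with its SE for each tested member of 4 lists; red members were called and open squares were listed at 0 on at least 1 of the 10 arrays. The 6 called glycolysis members all lie above 0 and the 8 called smooth muscle members all below, and among the glycolysis members the widest errors belong to those with zeros.

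Genes of cholesterol synthesis were mixed over all arrays. Of 17 tested members 5 were called higher and 2 lower, against 9.07% and 10.9% of all features. The median was 0.13, and 10 of the 17 had a zero on at least 1 of the 10 arrays. Fdft1, which makes squalene, read 83.8, 120 and 135 in wild type and 226 to 446 in transgenic arrays (1.50 ± 0.22, adjusted p = 2.5e-05). Cyp51, the lanosterol demethylase, read 52.6, 74.8 and 73.6 against 101 to 343 (1.53 ± 0.33), and Dhcr7, which makes cholesterol in the last step, read 35.9 to 59.6 against 127 to 209 with 0 on replicate 9 (1.43 ± 0.45). Pmvk, of the mevalonate pathway, rose by 0.71 ± 0.19, although transgenic replicate 2 lay within the wild type range. Fdps, which makes farnesyl diphosphate, rose by 0.76, although transgenic replicate 10 read 237 against 168 to 279 in wild type. The 2 members called lower were Ebp, the sterol isomerase (-0.39 ± 0.10), and Nsdhl, a sterol dehydrogenase which fell by 2.12 with zeros on replicates 4, 8 and 9 (-0.21 and not called with zeros missing). Msmo1 and Sqle, of the same branch, were at 0 on replicate 9 and higher than wild type on the other 6 (1.25 and 1.11 with zeros missing, both called). With zeros missing 7 members were called higher and 2 lower, the latter being Ebp and Lss (-0.40). Srebf1, which encodes a sterol and fatty acid transcription factor, went the other way and fell without overlap from 672, 868 and 730 to 369 to 534 (-0.76 ± 0.14, adjusted p = 0.000379). Mylip, which degrades the LDL receptor, fell by 1.08 ± 0.25. Of 11 fatty acid synthesis genes 1 was higher and 3 were lower, with a median of 0.09. The number of cholesterol genes called higher was 2 without wild type replicate 1 and 3 with the array set as a block.

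Lysosomal genes were higher. Of 22 tested lysosome and autophagy genes 10 were called higher and 1 lower, with a median of 0.32. Gla, alpha-galactosidase A, read 70.4, 66.5 and 80.4 in wild type and 141 to 239 in transgenic arrays (1.28 ± 0.17, adjusted p = 7.7e-06). Hexa, a hexosaminidase subunit, read 606, 612 and 535 against 789 to 1459 (0.80 ± 0.17). Lamp2, a membrane protein of lysosomes, read 1148, 1004 and 1301 against 1404 to 2013 (0.49 ± 0.10), and its 4 probe sets ranged from 0.03 to 1.16. The 3 genes and Gusb were without overlap between groups. Neu1, the lysosomal sialidase, read 197, 260 and 236 against 752 to 901 on 6 arrays and 0 on replicate 9 (1.86 with zeros missing, called). The member called lower was Sqstm1, the autophagy receptor p62 (-0.41 ± 0.14), whose lowest value, 693, was on replicate 9 and which was not called without replicates 8 and 9. With zeros missing 11 members were called higher and 3 lower. The lower ones were Sqstm1, Tfeb (-0.79) and Gaa (-0.43), and neither Tfeb nor Gaa was called over all arrays. In set A 5 members were called higher, among them Gla, Gusb and Lamp2, and 6 without wild type replicate 1. CACGTG, the letters read by TFEB and its relatives, stands in 33.3% of 24 promoters of the tested members and in 6.02% of all promoters. The latter include genes that were not tested here, so they are not a matched background.

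**Figure D4:**
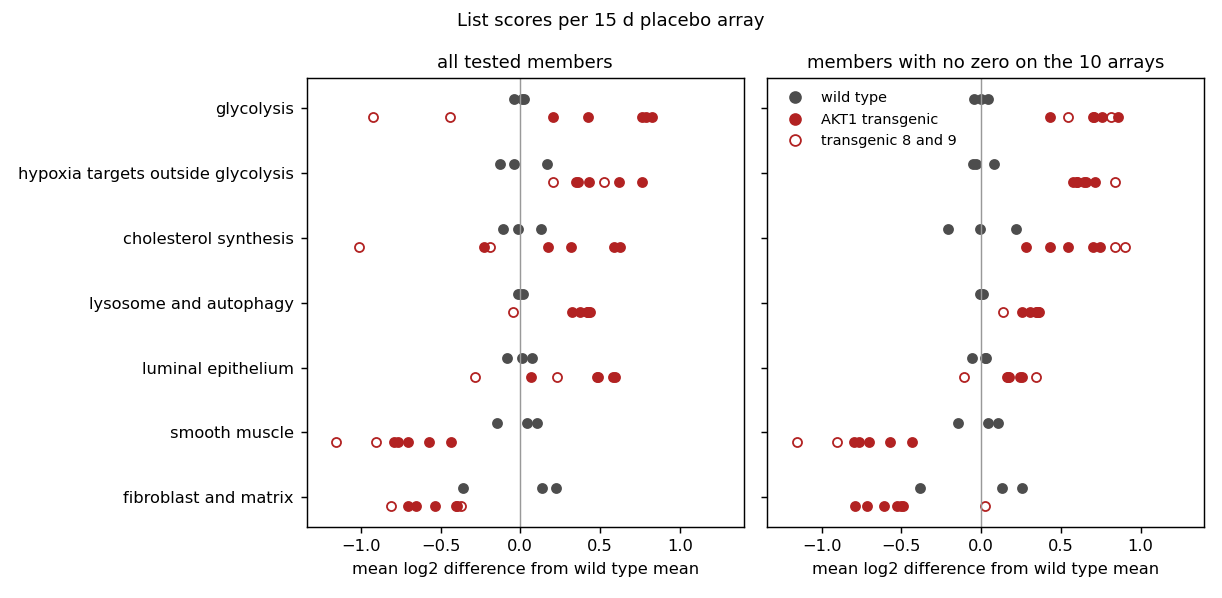
Mean log2 difference of each list's members from their wild type mean on each array, with all tested members on the left and those with no zero on the right; open points are transgenic replicates 8 and 9. Over members with no zero, all 7 transgenic arrays lie above all 3 wild type arrays for glycolysis, hypoxia targets, cholesterol synthesis and lysosome, and below for smooth muscle.

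Scores per array show where the lists depend on single arrays. The glycolysis score, the mean difference of the 12 members from their wild type mean, was 0.79 and 0.82 on transgenic replicates 1 and 2, 0.20, 0.76 and 0.43 on replicates 4, 6 and 10, and -0.44 and -0.92 on replicates 8 and 9. Over the 8 members with no zero it was 0.43 to 0.86 on all 7. The cholesterol score ran from -1.01 (replicate 9) to 0.62 over all 17 members and from 0.28 to 0.90 over the 7 without zeros. The hypoxia score lay above wild type on all 7 transgenic arrays either way, at 0.21 to 0.76 over 17 members and 0.57 to 0.84 over 14. The lysosome score was -0.04 on replicate 9 and 0.32 to 0.44 on the other 6. The luminal score was -0.28 on replicate 9, below wild type, and the fibroblast score over 12 members without zeros was 0.02 on replicate 8, within the wild type range.

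Messenger RNAs of the pathway that carries the transgene's signal gave 3 calls, near the share over all features. Of 20 tested genes of PI3K, AKT and mTOR 0 were called higher and 3 lower, against 9.07% and 10.9% of all features. Their median was -0.31, and in set A 0 were called in either direction with a median of 0.01. Irs1, an adaptor of the insulin receptor, read 350, 396 and 497 in wild type and 177 to 299 in transgenic arrays without overlap (-0.77 ± 0.23, adjusted p = 0.0149). Mlst8, an mTOR complex subunit, fell by 0.60 ± 0.21 and Pik3r1, a regulatory subunit of PI3K, by 0.39 ± 0.14, both with overlap and neither called without replicates 8 and 9. Over the 16 members with no zero, the mean difference per array was -0.01 on transgenic replicate 1 and -0.10 to -0.46 on the other 6, below all wild type arrays (-0.04 to 0.09). Mtor read 194, 230 and 240 against 215 to 312 on 6 arrays and 0 on replicate 9 (-0.29 ± 0.45). Eif4ebp1, the translation repressor that mTOR phosphorylates, read 1143, 1039 and 1222 against 723 to 1021, without overlap but not called (-0.39 ± 0.17, adjusted p = 0.0941). Rps6kb1 was not tested here. These are RNA levels, and the activity of the kinases was not measured.

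Targets of the FOXO factors, which AKT restrains, went in both directions. Of 16 tested 3 were called higher and 1 lower, against 9.07% and 10.9% of all features, with a median of 0.13. Fbxo32 read 832, 844 and 772 in wild type and 149 to 461 in transgenic arrays. Cat, catalase, rose from 247, 297 and 284 to 378 to 674 (0.85 ± 0.20), Foxo3 itself by 0.62 ± 0.15 and Bcl6, a transcriptional repressor, by 0.67 ± 0.21, all without overlap. None of the 4 was called in set A, and Bcl6 was not called without replicates 8 and 9 (adjusted p = 0.0627).

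Of 12 tested genes of the IGF axis 3 were called lower and 1 higher, against 10.9% and 9.07% of all features. The median was -0.24. Igfbp5, a binding protein made by stroma and epithelium, read 1002, 1150 and 734 in wild type and 357 to 563 in transgenic arrays (-1.12 ± 0.18, adjusted p = 6.02e-05). Igfbp2 fell by 0.52 ± 0.17 with overlap and was not called without replicates 8 and 9 (adjusted p = 0.0637), and Igf1 is described above. Igf2r, the receptor that carries IGF2 and lysosomal enzymes to the lysosome, rose by 0.59 ± 0.14. Igfbp5, Igf1 and Igf2r were also called in set A.

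Smooth muscle genes were lower in transgenic glands. Of 14 tested markers 8 were called lower and 0 higher, with a median of -0.82, and none had a zero on the 10 arrays. Tagln, the actin-binding protein transgelin, read 2462, 2446 and 2181 in wild type and 836 to 1604 (median 1184) in transgenic arrays (-0.998 ± 0.156, adjusted p = 5.1e-05). Acta2, smooth muscle alpha-actin, read 3322, 3273 and 2670 against 1482 to 2176 (-0.86 ± 0.14). The filamin gene Flna fell by 1.08 ± 0.21 and the tropomyosin gene Tpm1 by 0.80 ± 0.16. None of these 4 genes overlapped between groups. The summed intensity of the 14 markers was 14263 to 16931 in wild type and 6704 to 10938 in transgenic arrays. The score was -0.44 to -1.16 on the 7 transgenic arrays, lowest on replicates 8 and 9. In set A 4 were called lower, including Tagln and Acta2, with a median of -0.68. In whole glands, fewer cells of a type and less RNA per cell cannot be told apart.

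Fibroblast and matrix genes fell less evenly. Of 16 tested 4 were called lower and 0 higher, with a median of -0.54. Dcn, the proteoglycan decorin, read 3374, 3614 and 3264 in wild type and 1100 to 2292 in transgenic arrays (-1.02 ± 0.18), the collagen gene Col1a2 fell by 1.14 ± 0.24 without overlap, and Sparc fell by 0.92 ± 0.25 with overlap. The fourth was Igf1, the member still called in set A, where Dcn (-0.61), Col1a2 (-0.92) and Sparc (-0.77) were not. Wild type replicate 3 was the lowest of its group in Col1a2 (624 against 1113 and 1086) and Sparc (711 against 1013 and 1298). The summed intensity of the list was 7841 to 11101 in wild type and 5220 to 8544 in transgenic arrays, and Col1a1, Col5a2, Lum and Fbln1 were listed at 0 on some array. Of 4 skeletal muscle markers 0 were called, while their score was below wild type on all 7 transgenic arrays, at -0.32 to -1.02.

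Luminal epithelial markers rose in part. Of 17 tested 5 were called higher and 0 lower, against 9.07% and 10.9% of all features, with a median of 0.14. Krt8, the keratin of simple epithelia, read 2037, 2338 and 2188 in wild type and 3147 to 4896 in transgenic arrays (0.81 ± 0.16, adjusted p = 0.000562). Cdh1, E-cadherin, read 970, 1027 and 812 against 1250 to 1656 (0.59 ± 0.15). The protease inhibitor gene Spint1 rose by 0.67 ± 0.13 and its protease St14 (matriptase) by 0.56 ± 0.16, all without overlap. Psca is the fifth. The summed intensity of the 17 markers was 20260 to 22552 in wild type and 19568 to 29534 in transgenic arrays, with Krt19, Epcam and Psca listed at 0 on some array. The part of these changes in cell make-up in the results above was not tested. Of 10 basal markers 1 was called, Trp63, the master regulator of basal cells (-0.39 ± 0.13), while the keratin Krt5 was not called (-0.13 ± 0.16).

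Markers of other cells a gland sample could hold gave few calls, to be read against 9.07% of all features higher and 10.9% lower. Of 10 macrophage markers 1 was lower (Fcer1g) and 0 were higher, of 4 endothelial markers 1 was higher (Cdh5), of 8 nerve and Schwann cell markers 1 was higher (Mbp) and of 2 erythrocyte markers 1 was lower (Alas2). No marker was called among 4 of neutrophils, 6 of lymphocytes, 3 of mast cells, 3 of adipocytes, 3 of urothelium and 1 of neuroendocrine cells. None of the 6 seminal vesicle genes on the table was bright enough to be tested.

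Among 11 tested androgen-regulated prostate genes 2 were called higher and 0 lower, with a median of -0.03. Tmprss2, a membrane serine protease of luminal cells, read 701, 841 and 841 in wild type and 2083 to 3124 in transgenic arrays (1.64 ± 0.23, adjusted p = 1.62e-05). Apof, a secreted apolipoprotein, read 1472, 1285 and 1575 against 2440 to 3311 (0.93 ± 0.17). Both were without overlap and are in the core.

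Immediate early and stress factors did not move as a block. Of 18 tested 5 were higher and 2 lower, with a median of -0.12. With zeros missing 6 were higher and 2 lower, with a median of 0.18, and in set A the median was 0.33. Over the 14 members with no zero the score was 0.15 to 0.74 on the 7 transgenic arrays. In wild type it was -0.01 to 0.02. Beside Atf3, the growth-arrest gene Btg2 read 431, 399 and 563 in wild type and 779 to 1472 in transgenic arrays (1.11 ± 0.25). The AP-1 subunit gene Jund rose by 0.64 ± 0.12 and the zinc finger gene Klf6 by 0.88 ± 0.19. Among 17 genes of amino acid synthesis and the ATF4 response 4 were higher and 0 lower, including Asns, asparagine synthetase (0.61 ± 0.13), and Psph and Psat1 of serine synthesis (0.84 ± 0.22 and 0.80 ± 0.22). Without replicates 8 and 9 the number was 2, with Psat1 no longer called (adjusted p = 0.0512), and in set A it was 1, Asns. Of 20 chaperone and unfolded protein response genes 1 was higher and 1 lower. The latter was Xbp1, the factor that expands the secretory machinery, which read 2314 to 2598 in wild type and 2136 and 2356 on transgenic replicates 1 and 2, but 612 to 1314 in set B (-1.05 ± 0.24 over all arrays, -0.11 in set A).

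Of 12 tested acute-phase and mucosal defence genes 4 were higher and 0 lower, with a median of -0.24. The median was 0.32 with zeros missing. Over the 7 members with no zero the score was 0.94 to 1.33 on the 7 transgenic arrays and -0.10 to 0.19 in wild type. Clu, the secreted chaperone clusterin, read 2207, 1983 and 2646 in wild type and 4423 to 7044 in transgenic arrays (1.35 ± 0.19, adjusted p = 1.44e-05), and its 4 probe sets gave 1.35 to 1.50. Pigr, which carries antibodies across epithelium, rose by 0.46 ± 0.11. Cxcl15, an epithelial chemokine, read 36.9, 83.4 and 48.1 against 140 to 579 (2.13 ± 0.69), but was not called without replicates 8 and 9 (adjusted p = 0.0578) or in set A (1.49). Saa1 was at 0 on replicates 2 and 4 and otherwise at 801 to 2455 against 72.7, 60.3 and 88.4 (4.35 with zeros missing). Saa1 and Saa2 are near-identical, and their probe sets may share transcripts.

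Of 16 tested ribosomal protein and elongation factor genes 7 were called lower and 0 higher, with a median of -0.20. Without replicates 8 and 9 the number was 3, and with the array set as a block 2. Rps9 read 3158, 2927 and 3224 in wild type and 1681 to 2430 in transgenic arrays (-0.62 ± 0.10, adjusted p = 4.01e-05) and was the member called in set A. Rplp0 fell by 0.45 ± 0.12 over all arrays, but by 0.02 in set A, while Rpl7 and Rpl10a differed by -0.25 ± 0.07 and -0.20 ± 0.07, Rpl7 without a call once replicates 8 and 9 were left out (adjusted p = 0.0583). Of 12 clock genes 4 were lower and 0 higher. The output genes Tef (-0.89 ± 0.17) and Dbp (-0.83 ± 0.16) fell without overlap, Per3 by 0.64 ± 0.17 and Nr1d1 by 0.78 ± 0.27. None of the 4 was called in set A, where Nr1d1 differed by -0.07, and Nr1d1 was also not called without replicates 8 and 9 (adjusted p = 0.114). No label gives the time of day of sampling.

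The remaining lists gave few calls, to be read against 9.07% of all features higher and 10.9% lower. Among 24 oxidative phosphorylation genes 1 was higher, the cytochrome c gene Cycs (0.78 ± 0.13), and 5 were lower, among them Sdhb of succinate dehydrogenase (-0.44 ± 0.09), but 3 were lower without replicates 8 and 9 and 0 in set A. Of 15 citric acid cycle genes 2 were higher and 1 lower, led by the aspartate aminotransferase gene Got1 (1.01 ± 0.18). Of 14 cell cycle genes 0 were higher and 2 lower. They were the cyclin gene Ccnd1 (-0.56 ± 0.13, also called in set A) and the replication helicase gene Mcm2, which fell by 1.89 with zeros on replicates 4, 8 and 9. Calls were 0 higher and 2 lower among 21 ribosome biogenesis genes, 3 and 1 among 18 antioxidant genes, 2 and 1 among 23 proteasome genes, 1 and 1 among 14 interferon-induced genes, 1 and 2 among 13 genes of the BCL2 family and apoptosis, 0 and 2 among 8 sterol sensing genes, and 0 among 13 antigen presentation and 7 polyamine genes.

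The same genotype comparison at 12 h and 48 h uses other arrays, 4 wild type and 4 transgenic at 12 h and 4 and 5 at 48 h. All times share the estimate of spread of each feature, so calls shared between times are not independent. At 12 h 20.6% of features were called and at 48 h 26.6%. Of the 873 features higher at 15 d, 44% were also called higher at 12 h (41.5% of that list) and 29.3% at 48 h (21.8% of that list). Of the 1047 lower at 15 d, 26.3% were also lower at 12 h (25.9% of that list) and 22.5% at 48 h (17% of that list). Opposite calls were 3 and 9 features at 12 h and 66 and 89 at 48 h. Within the core, 88 of 128 higher and 34 of 56 lower features were called in the same direction at both earlier times. Median differences of the glycolysis list were 1.23 at 12 h, 1.10 at 48 h and 0.39 at 15 d, or 0.92 at 15 d with zeros missing. Those of the smooth muscle list were -1.04, -0.86 and -0.82, and those of the lysosome list 0.50, 0.35 and 0.32, while all features had medians of -0.04, 0.00 and -0.09.

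The difference between the 15 d comparison and the mean of the earlier ones was itself tested. It was called for 1283 features (13.3%), 648 higher (6.73%) and 635 lower (6.6%) at 15 d than before, but for 22 (0.229%) in set A and 69 with the array set as a block. Of the 1283, transgenic glands had a called change from the earlier times to 15 d in 1075 with no called change in wild type, and the reverse held in 100. These counts set calls against missing calls for 7 transgenic and 3 wild type arrays at 15 d, so they do not show which genotype moved. Strap, a scaffold of TGF-beta signalling and mRNA assembly complexes, had the smallest p among the falls. Transgenic minus wild type was 1.39 at 12 h and 1.05 at 48 h but -0.13 at 15 d, a difference of -1.36 (adjusted p = 5.42e-06) that was -1.31 (adjusted p = 0.000214) in set A. Transgenic arrays fell from a mean log2 of 9.79 and 9.81 to 8.58, and wild type arrays were at 8.40, 8.76 and 8.71. A dimmer Strap probe set, left out by the filter, went the other way on set B at 15 d. Its intensity was 26.5 to 46.3 in wild type, 46.5 and 37.9 on transgenic replicates 1 and 2, and 98.7 to 190 on set B arrays. The ubiquitin ligase gene Cblc (-1.37), Sspo, which encodes SCO-spondin (-1.22), the deubiquitinase gene Stambp (-1.27), Tmem98 (-0.94) and Clstn1 (-0.77) were also called in set A. Aff1, of the elongation complex, led the rises. It read 231, 329 and 274 in wild type and 401 to 623 in transgenic arrays at 15 d (0.90 ± 0.15) after -0.15 and -0.39 at 12 h and 48 h, and its difference of 1.17 was 0.92 and not called in set A. Set B holds 5 of the 7 transgenic placebo arrays of 15 d and no wild type array, and the part of that in these differences was not tested.

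**Figure D5:**
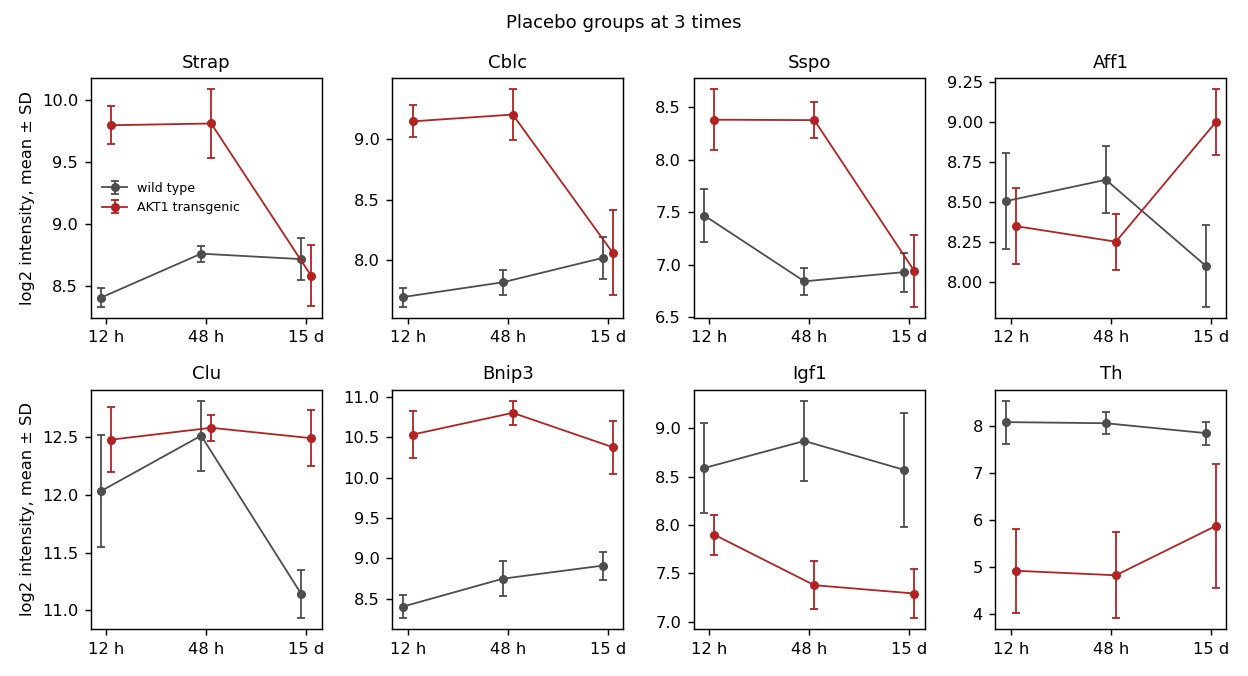
Mean log2 intensity with SD in wild type (grey) and transgenic (red) placebo groups at 12 h, 48 h and 15 d, joined by lines for 8 genes. Strap, Cblc and Sspo were higher in transgenic glands at the earlier times and met wild type at 15 d, Clu parted at 15 d where wild type was lower, and Bnip3, Igf1 and Th kept their direction.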

How the data were processed

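Affymetrix arrays of mouse ventral prostate were read from the larger deposited value table, in which the authors give 1 linear intensity per probe set and array. No label or header says how those intensities were scaled. The 22626 probe sets carry 1 symbol (20380), several (691) or none (1555) in the platform annotation. Values were floored at 16 and put on the log2 scale. Probe sets under the 40th percentile of mean log2 intensity and 2 beyond the scanner's range were left out, and the brightest probe set of each symbol was kept, which left 9627 features (8496 named). Limma 3.58.1 in R 4.3.3 fitted 1 mean per group over all 42 arrays with a trended empirical Bayes variance (33 residual degrees of freedom), and p-values were adjusted by the Benjamini-Hochberg method at 0.05. The labels call arrays of a group biological replicates.

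Named at 15 d were the 12 largest rises and falls also called without transgenic replicates 8 and 9, up to 4 members of smallest p per list, a few pathway genes, and 8 genes per direction against the earlier times. Genes outside this rule were chosen after their values were seen. The comparison, lists and tests were chosen with earlier results of these data known. Array sets A and B, and every setting that uses them, were chosen after seeing the data. Other settings were the filter, floor, scaling, probe sets, array weights, compared groups only, replicate block, zeros missing and leaving out arrays. The fit was run on simulated independent normal values, which held neither exact zeros nor the array sets and so do not bear on either. Only the replicate numbers 1 and 2 are shared by both groups, and deviations of same-numbered arrays correlated at 0.04 and -0.25, so the numbers were not taken as pairs. Promoters are 250 bases upstream from RefSeq (GRCm38.p6).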

Additional observations from a re-analysis of the deposited data

Results flagged for a closer look

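Of 120 values examined over the 7 transgenic arrays, 17 had 1 array set apart from the others. Chance flags about 1 in 20 unrelated groups. These values share the same arrays and many are genes picked from these data, so that rate is no yardstick for the 17. The lowest array lay at the floor of 4 (log2, an intensity listed at 0) for Psca on replicate 4, AY036118 on replicate 1, Zfand3 on replicate 10, Ldha on replicate 8, and Niban1, Mtor, Slc2a1, Pgam1, Higd1a, Dhcr7, Msmo1, Sqle and Neu1 on replicate 9. Mknk1 was lowest on replicate 2 at 5.83, Bnip3 on replicate 10 at 9.66 and Sqstm1 on replicate 9 at 9.44, none of them a zero. The lysosome score was lowest on replicate 9 at -0.04.

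The genotype difference at 15 d differed from that at 12 h and 48 h, by limma's test of that difference, in 16 named genes. It was higher at 15 d for Aff1 by 1.167, Rab4a by 1.165, Zfp825 by 1.153, Zfp472 by 0.986, Fam76b by 0.979, Nudt4 by 0.89, Golim4 by 0.869 and Tmem219 by 0.824. It was lower for Pygl, at -2.812 with zeros among its arrays, Cblc at -1.371, Strap at -1.355, Stambp at -1.272, Sspo at -1.215, Tmem98 at -0.942, Fis1 at -0.876 and Clstn1 at -0.769.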

How the results depend on the processing

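The numbers of glycolysis and hypoxia genes called higher stayed within 1.5 times of 6 and 7 in all 24 settings run, while counts over all features did not. Of 1920 calls at 15 d (873 higher, 1047 lower), fitting the compared groups alone left 502 (320 and 182), array set A 291 (200 and 91) and the array set as a block 460 (273 and 187), and set B against wild type gave 3327 (1386 and 1941). Testing all probe sets apart gave 1374 higher, and leaving out transgenic replicates 8 and 9 gave 663 lower. Leaving out each array in turn gave 715 to 2721 calls, 377 to 1182 higher and 338 to 1539 lower, lowest without wild type replicate 1. With the replicate number as a block, which is not a pairing here, 637 were called (392 higher, 245 lower), and 194 against the earlier times.

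Of 1283 features that differed from the earlier times, counts were 2076 with all probe sets apart, 2041 with array weights, 799 without replicates 8 and 9, 22 in set A, 69 with the set block, 2698 for set B and 2033 against 48 h alone, and 297 (without wild type replicate 1) to 2076 (without transgenic replicate 2) on leaving out arrays. Cholesterol genes called higher numbered 2 at the 60th percentile filter, 1 with the compared groups alone, 3 with the set block and 2 to 7 on leaving out arrays, against 5. Lysosome genes called higher numbered 5 in set A, 4 with the set block and 6 to 11 on leaving out arrays, against 10. Smooth muscle genes called lower numbered 4 both in set A and with the set block, and 6 to 8 on leaving out arrays, against 8.

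Of 113 genes named at 15 d, 98 were called, 33 of these kept call and direction in every setting and 16 of the 113 changed sign in some setting, 12 of them with a call in at least 1 of the fits compared. With zeros missing the differences were 0.81 (Ddit4), 0.11 (Abce1), 0.088 (Cdkn2c), 0.075 (Blvra), 0.078 (Padi2), 0.99 (Pkm) and 0.96 (Ldha). In set A they were 0.11 (Nme1, Abce1, H2aw and Nsdhl), 0.058 (Cdkn2c), 0.075 (Blvra), 1.23 (Pkm) and 0.17 (Mcm2), and with the set block 0.055 (Abce1) and 0.005 (Gins4). Each of these genes was listed at 0 on some of the 10 arrays. The cause of the zeros was not tested.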
